A study of Mus musculus with 2 samples.

Results

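C1q macrophages with low MHC class II were cells of MC38 tumours that carried many transcripts of the complement C1q genes and few of the MHC class II genes. A cell was counted as one when it had at least 500 UMIs (unique molecular identifiers, each standing for 1 captured transcript), at least 200 genes and at most 20% mitochondrially encoded UMIs, with fewer than 5 Cdkn2a UMIs per 10000, a summed C1qa, C1qb and C1qc count of at least 30 per 10000, and a summed Cd74, H2-Aa, H2-Ab1 and H2-Eb1 count under 30 per 10000. Cells with at least 2 Acp5 and at least 2 Ctsk UMIs, osteoclast-like by those genes, were left out. The rule found 2104 cells, 680 in the UBD library and 1424 in the control library, of 27972 cells that passed the quality limits and 29048 barcodes. The C1q cells at or above the class II limit, 1050 in the UBD library and 889 in the control library, are called high class II cells. The cells were thus chosen by their UMIs of these genes, whose levels here describe the choice and show nothing further.

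C1q is the recognition molecule of the classical complement pathway and in most tissues is made by macrophages. MHC class II molecules present peptides to CD4 T cells; macrophages load them with the help of the invariant chain Cd74 and the H2-DM chaperone, under the master regulator Ciita. In tumours, macrophages that arrive as Ly6c2-positive monocytes and macrophages of longer residence in the tissue can both carry C1q, and they are known for clearing dying cells, taking up lipids and secreting chemokines.

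The study compared mouse tumours grown under the skin from MC38, a colon carcinoma cell line, after inoculation of UBD-overexpressing cells or of control cells. UBD, ubiquitin D, is a ubiquitin-like protein. Tumours were minced, digested and treated with red cell lysis buffer, and unsorted cells were profiled with the 10x Chromium 3′ v3 kit. Each group was 1 library. The sources used here do not give the strain, sex or age of the mice, the number of tumours pooled, the promoter or species of the UBD construct, or the number of clones used. With 1 library per group there is no replicate check: each difference between libraries below compares those 2 libraries, not the 2 conditions, and the intervals, at 95%, cover counting error only.

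Across all kept cells the libraries held 203136499 UMIs in 13619 UBD cells and 172328017 UMIs in 14353 control cells. The low class II C1q cells had a median of 6002 UMIs and 1918 genes in the UBD library, against 3825.5 UMIs and 1477.5 genes in the control library. Mouse Ubd was scarce in both libraries: after every cell was thinned to 1000 UMIs, 8 of 8535 UBD cells and 4 of 6492 control cells of the Cdkn2a-positive tumour gate held a Ubd UMI (0.0937% and 0.0616%). Over all summed UMIs of that gate Ubd was higher in the UBD library, the order the labels give, with 190 UMIs and 1.15 CPM (0.9896 to 1.32) in the UBD cells and 43 UMIs and 0.322 CPM (0.233 to 0.434) in the control cells. In the low class II C1q cells, 0 of 680 UBD cells, which allows a share of up to 0.441%, and 4 of 1424 control cells had one. Whether the overexpressed construct carries the counted 3′ end is not given, so this level is a limited check of the labels. The libraries shared 66 cell barcodes among kept cells, 2 of them in this class, and Scrublet marked 10 UBD cells (1.47%) and 38 control cells (2.67%) of the class as doublets; they were kept.

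The 5 genes that were to mark these cells were present. Levels are given as CPM, counts per 1000000 summed UMIs of the cells in question. C1qa, C1qb and C1qc, which the rule used, stood at 5697, 4221 and 2587 CPM in the UBD library and at 4940, 4383 and 2327 CPM in the control library. Apoe, an apolipoprotein that the rule did not use, had 8496 CPM in the UBD cells and 8350 CPM in the control cells, a ratio of 1.02 (1.00 to 1.03). Pf4, the platelet factor chemokine that tissue macrophages also make, had 2173 CPM in the UBD cells and 5549 CPM in the control cells, so it was 2.55-fold lower in the UBD library (2.50 to 2.61). Thinned to 1000 UMIs, 53.3% of the UBD cells and 62.6% of the control cells held a Pf4 UMI, against 2.54% and 6.31% of the T or NK cells of the same libraries, a gate that should lack it. Macrophage genes outside the rule were also there: the signalling adaptor Tyrobp stood at 2471 CPM and 2502 CPM, and Cd68 at 634 CPM and 739 CPM, in the UBD and control cells.

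Most members lay well below the class II limit. Of the low cells, 535 in the UBD library (78.7%) and 1125 in the control library (79.0%) had under 10 class II UMIs per 10000, and 197 (29.0%) and 539 (37.9%) had 0. Just inside the limit, at 20 to under 30 per 10000, were 54 UBD cells and 93 control cells; just outside it, at 30 to under 40, were 60 UBD cells and 68 control cells. Just inside the C1q limit, at 30 to under 40 per 10000, were 27 UBD cells and 135 control cells, and just below it, at 20 to under 30, 39 UBD cells and 163 control cells. The Cdkn2a limit kept out 94 UBD cells and 188 control cells that were otherwise members, and the Acp5 and Ctsk limit kept out 13 UBD cells and 5 control cells. Among the members, 31.5% of the UBD cells and 24.2% of the control cells still held at least 1 Cdkn2a UMI, a gene the MC38 cells carry at high level.

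**Figure D1:**
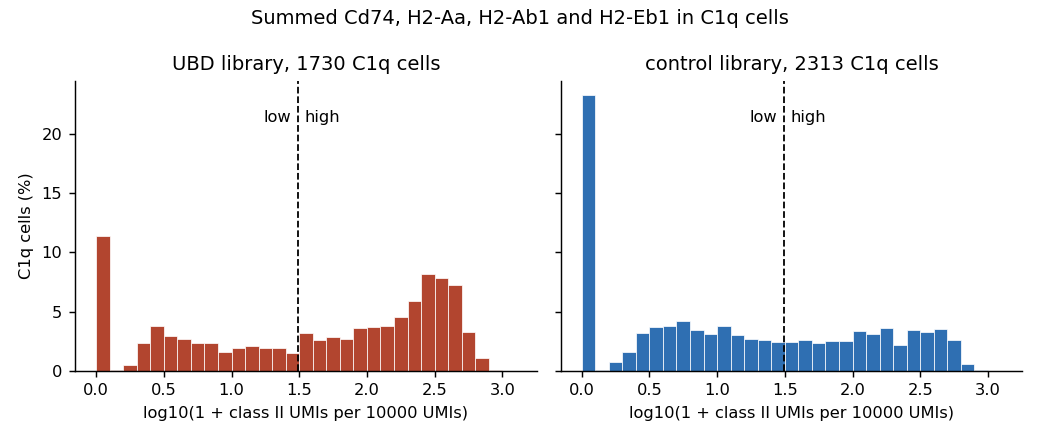
Histograms of the class II level of C1q cells, log10(1 + summed Cd74, H2-Aa, H2-Ab1 and H2-Eb1 UMIs per 10000) on the x axes and the percent of C1q cells on the y axis, in the UBD library (1730 cells) and the control library (2313 cells); the dashed line is the limit of 30 per 10000. Cells left of the line are the low class, 39.3% in the UBD library and 61.6% in the control library.

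C1q cells of the UBD library were less often low in class II. The low class made up 680 of 1730 C1q cells in the UBD library, 39.3% (exact binomial interval 37.0 to 41.7%), and 1424 of 2313 C1q cells in the control library, 61.6% (59.5 to 63.6%), a difference of -22.3 percentage points (-25.3 to -19.2). After thinning to 1000 UMIs, the shares were 39.7% in the UBD library and 59.8% in the control library, a difference of -20.1 points (-23.2 to -16.9). The order was the same in each band of depth. From the shallowest band to the deepest, the low share of C1q cells was 48.7% in UBD and 69.5% in control cells with 500 to under 1000 UMIs, 38.6% and 67.3% with 1000 to under 2000, 34.1% and 63.1% with 2000 to under 4000, 37.4% and 56.2% with 4000 to under 8000, and 47.2% and 65.0% with 8000 or more. In the band under 1000 UMIs, with 39 UBD cells, the intervals of the 2 libraries overlapped (32.4 to 65.2% in the UBD library, 60.8 to 77.2% in the control library). Of all kept cells the low class was 4.99% in the UBD library and 9.92% in the control library, and of kept cells outside the tumour gate it was 13.7% and 18.7%.

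Low and high class II cells had similar C1q levels, and of the genes named in both libraries H2-DMb1, a class II loading gene the rule did not use, differed most. C1qa had 5697 CPM in low and 5771 CPM in high cells of the UBD library, and 4940 CPM and 5346 CPM in the control library. These contrasts split the cells by genes of the same transcriptomes, so they describe the split and carry no test. Of 10044 genes with at least 20 summed UMIs in each library, 333 (3.32%) were at least 1.5-fold higher and 174 (1.73%) at least 1.5-fold lower in low than in high cells in both libraries, and 86 (0.856%) were past 1.5-fold in opposite directions. The median log2 ratio of low over high was 0.12 in the UBD library and 0.07 in the control library, and with ratios centred on those medians the counts in both libraries were 223 higher and 224 lower. Of 6 class II machinery genes outside the rule with enough UMIs in both libraries, 4 were lower in both and 0 higher. H2-DMb1, a chain of the peptide-loading chaperone, had 55.7 CPM in low and 450 CPM in high cells of the UBD library, 8.08-fold lower, and 41.8 CPM in low and 314 CPM in high cells of the control library, 7.51-fold lower. H2-DMa, its partner chain, was 5.00-fold lower in the UBD low cells (111 against 556 CPM) and 2.93-fold lower in the control low cells (118 against 346 CPM).

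Of 10 class II regulators, Ciita alone was past 1.5-fold lower in low cells of both libraries. It had 0.457 CPM in low and 24.8 CPM in high cells of the UBD library, a ratio of 0.0184 (0.00221 to 0.0676) resting on 2 UMIs in low cells, and 1.10 CPM in low and 17.7 CPM in high cells of the control library, resting on 7 UMIs. Spi1, the macrophage transcription factor PU.1, had 415 CPM in low and 417 CPM in high cells of the UBD library and 513 CPM and 490 CPM in the control library, within 1.5-fold. Cathepsin S (Ctss), which trims the invariant chain, was also within 1.5-fold: 1682 CPM in low and 2443 CPM in high UBD cells, and 1993 CPM in low and 2770 CPM in high control cells. None of the 16 MHC class I genes was past 1.5-fold the same way in both libraries, near the background of 3.32% higher and 1.73% lower.

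The genes higher in low than in high cells of both libraries included receptors and enzymes of tissue macrophages. Folr2, the folate receptor beta of macrophages, had 349 CPM in low and 110 CPM in high cells of the UBD library (3.19-fold higher, 2.91 to 3.49), and 253 CPM in low and 89.1 CPM in high cells of the control library (2.84-fold, 2.53 to 3.19). Pf4 was 2.79-fold higher in low cells of the UBD library (2173 against 779 CPM) and 5.47-fold higher in the control library (5549 against 1014 CPM). Hmox1, the heme-degrading oxygenase, was 2.33-fold higher in the UBD low cells (373 against 160 CPM) and 2.64-fold higher in the control low cells (530 against 201 CPM). Those genes had the same direction in both libraries with intervals well above 1. The gap junction gene Gja1 was 4.30-fold and 4.42-fold higher, the carbonyl reductase Cbr2 6.55-fold and 2.54-fold higher, the scavenger receptor Stab1 2.31-fold and 2.10-fold higher, the lysosomal protease Ctsl 2.02-fold and 2.39-fold higher, and the chemokine Ccl6 2.04-fold and 1.92-fold higher, in the UBD and control libraries. Itsn1, an endocytic scaffold, and Tspan3, a tetraspanin, completed the set of 10, at 2.61-fold and 2.15-fold higher and at 2.09-fold and 2.54-fold higher. Fibroblast markers were also higher in the low class: 7 of 7 were at least 1.5-fold higher in low cells of the UBD library (background 12.1%), and 4 of 6 (Dcn, Col3a1, Dpt and Col1a2) in both libraries (background 3.32%). Their summed level was 268 CPM in low and 89.3 CPM in high UBD cells, and 287 CPM in low and 104 CPM in high control cells; their part in the differences between the classes was not tested.

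Beyond the loading genes, Cxcl9 and Axl were lower in the low class. Cxcl9, a chemokine for CXCR3-positive T cells, had 340 CPM in low and 973 CPM in high cells of the UBD library (2.86-fold lower), and 127 CPM in low and 332 CPM in high cells of the control library (2.60-fold lower). Axl, a receptor for dying cells, was 2.01-fold lower in the UBD low cells (42.0 against 84.7 CPM) and 2.72-fold lower in the control low cells (44.8 against 122 CPM). The ligand that bridges dying cells to Axl, Gas6, went the other way: 104 CPM in low and 16.0 CPM in high cells of the UBD library, 6.48-fold higher (5.21 to 8.13), and 49.97 CPM in low and 22.0 CPM in high cells of the control library, 2.27-fold higher (1.79 to 2.90). Ly86 (MD-1, a partner of a Toll-like receptor homologue) was 1.88-fold and 1.79-fold lower, Scimp, an adaptor linked to class II signalling, 3.67-fold and 1.71-fold lower, and the P450 gene Cyp4f18 3.16-fold and 2.36-fold lower in the low cells of the UBD and control libraries. Lpcat2, Fam46c and Plbd1 made up the 10 genes, at 1.98-fold and 1.91-fold, 1.81-fold and 1.94-fold, and 2.52-fold and 1.69-fold lower.

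**Figure D2:**
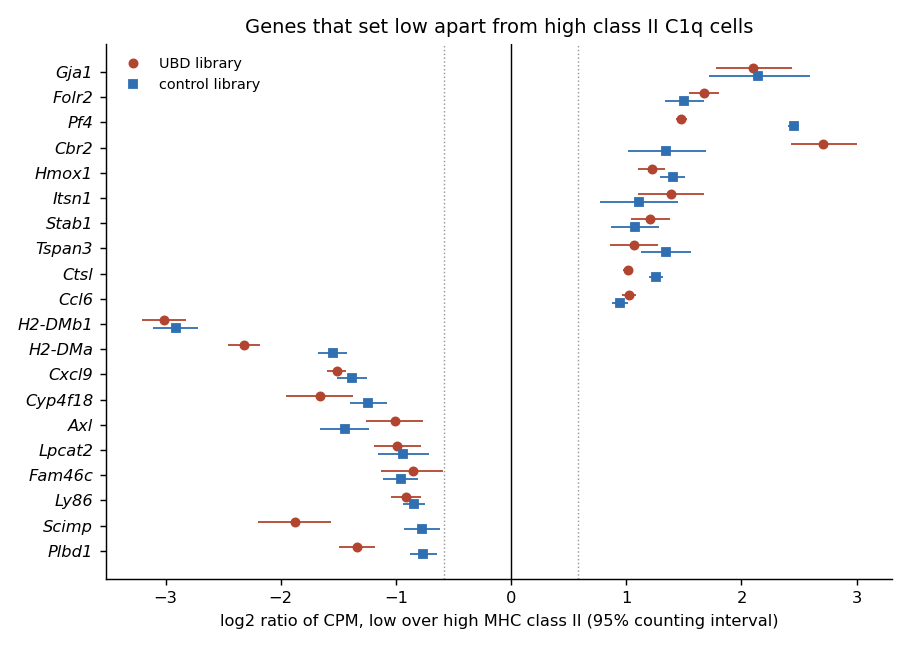
Log2 ratios of CPM, low over high class II C1q cells (x axis), for the 20 genes named in that comparison and for both libraries; bars are exact 95% counting intervals. Gja1, Folr2 and Pf4 lie to the right in both libraries, and H2-DMb1 and H2-DMa to the left.

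By function, part of the scavenger receptor list and a few lipid and arginine pathway genes were higher in the low than in the high class of both libraries. Of 15 scavenger and phagocytic receptor genes measured in both libraries, 6 (Mrc1, Cd163, Stab1, Gas6, Colec12 and Fcrls) were at least 1.5-fold higher in both and 1 (Axl) lower, against a background of 3.32% and 1.73% over all genes. The mannose receptor Mrc1 had 449 CPM in low and 239 CPM in high UBD cells and 293 CPM in low and 174 CPM in high control cells. Of 17 lipid genes, 4 (Gpnmb, Fabp5, Fabp4 and Spp1) were higher in both and 0 lower, while the summed level of the lipid list was 19694 CPM in low and 18456 CPM in high UBD cells and 17327 CPM in low and 18013 CPM in high control cells. Of 17 genes of arginine use, hypoxia and glycolysis, 3 (Arg1, Nos2 and Hmox1) were higher in both and 0 lower. Fabp5, a fatty acid carrier, had 2738 CPM in low and 1619 CPM in high UBD cells, 1.69-fold higher, and 2410 CPM in low and 595 CPM in high control cells, 4.05-fold higher. Arg1, the arginine-consuming enzyme of alternatively activated macrophages, was 1.73-fold higher in UBD low cells (1312 against 760 CPM) and 1.90-fold higher in control low cells (379 against 200 CPM). Of 17 chemokine genes, Ccl6, Ccl8, Ccl9 and Pf4 were higher in both and Ccl5 lower, against the same background. Ccl8, a ligand of several CC receptors, had 3712 CPM in low and 2239 CPM in high UBD cells and 3367 CPM in low and 1087 CPM in high control cells. No gene of the cell cycle, stress or class I lists was past 1.5-fold the same way in both libraries, which is near that background. In the UBD library alone 3 of 18 cell cycle genes were higher and 0 lower, with a median log2 ratio of 0.37. There 3 of 16 class I genes were lower and 0 higher, with a median of -0.44 (background 12.1% higher and 5.31% lower). In the control library 0 of either list were past 1.5-fold.

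Between the libraries, low class II C1q cells of the UBD tumour carried far less of the type I interferon response and of monocyte genes, and more of tissue-resident macrophage genes, proliferation genes and Arg1. Of 10615 genes with at least 20 summed UMIs, 1446 (13.6%) were at least 1.5-fold higher and 2124 (20%) as much lower, UBD cells over control cells, with a median log2 ratio of -0.04. In the high class II cells the counts were 1277 (12.3%) higher and 2262 (21.9%) lower of 10344 genes, with a median of -0.08. When totals were taken without Gm42418, mitochondrially encoded and ribosomal protein genes, the counts in low cells were 1770 higher and 1816 lower. Of the genes high enough to be named, 268 were higher and 516 lower; 55 more were set aside because another cell type held over 5 times as much.

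The type I interferon genes were all lower in the UBD cells. In the UBD low class II cells 21 of 21 measured genes were past 1.5-fold lower, against the background of 20% of all genes, and their median log2 ratio was -2.72 (from -4.47 to -1.64). Irf7, the transcription factor that amplifies interferon production, had 52.8 CPM in the UBD cells and 602 CPM in the control cells, 11.4-fold lower (9.99 to 13.1). Rsad2 (viperin), which blocks viral replication, had 63.7 CPM and 419 CPM, 6.58-fold lower. Isg15, a ubiquitin-like modifier, had 36.8 CPM in the UBD cells and 313 CPM in the control cells, 8.50-fold lower (7.24 to 10.0), and the antiviral Ifit3 had 24.7 CPM and 258 CPM, 10.5-fold lower, although near-identical Ifit3b can share its reads. Mx1, a GTPase against influenza, had 7.31 CPM and 105 CPM, and was 14.3-fold lower. Usp18, which removes Isg15 from proteins, was 9.69-fold lower, Cmpk2, a mitochondrial nucleotide kinase, 8.35-fold lower, the receptor chaperone Rtp4 8.48-fold lower, and the DNA sensor family members Ifi213, Ifi205 and Ifi206, whose sequences are alike, 14.8-fold, 10.5-fold and 10.0-fold lower. The high class II cells had the same direction for all 21 genes, with a median log2 ratio of -3.99.

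To show a sequence element that part of these interferon genes carried, the promoters of 3 that held it follow, from RefSeq on GRCm38.p6, written on the strand of the gene from 250 bases before to 50 bases after its start. Capitals mark matches to the core of the interferon-stimulated response element, GAAA and GAAA set apart by any 2 bases, searched on both strands. On the other strand the boxes read TTTC and TTTC, and overlapping matches run together. Isg15 lies at chr4:156200769-156201068 on the minus strand, Ifit3 at chr19:34583279-34583578 on the plus strand and Ifit1 at chr19:34640639-34640938 on the plus strand.
Isg15: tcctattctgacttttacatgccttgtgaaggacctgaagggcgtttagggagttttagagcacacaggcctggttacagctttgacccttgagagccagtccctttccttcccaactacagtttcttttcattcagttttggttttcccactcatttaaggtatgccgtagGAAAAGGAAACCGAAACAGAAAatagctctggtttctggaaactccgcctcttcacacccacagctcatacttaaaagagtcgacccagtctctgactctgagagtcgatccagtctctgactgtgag
Ifit3: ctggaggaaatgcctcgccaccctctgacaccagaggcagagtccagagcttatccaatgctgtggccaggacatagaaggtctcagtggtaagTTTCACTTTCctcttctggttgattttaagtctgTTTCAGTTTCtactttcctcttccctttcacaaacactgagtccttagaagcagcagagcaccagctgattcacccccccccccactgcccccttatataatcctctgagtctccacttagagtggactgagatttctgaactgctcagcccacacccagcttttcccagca
Ifit1: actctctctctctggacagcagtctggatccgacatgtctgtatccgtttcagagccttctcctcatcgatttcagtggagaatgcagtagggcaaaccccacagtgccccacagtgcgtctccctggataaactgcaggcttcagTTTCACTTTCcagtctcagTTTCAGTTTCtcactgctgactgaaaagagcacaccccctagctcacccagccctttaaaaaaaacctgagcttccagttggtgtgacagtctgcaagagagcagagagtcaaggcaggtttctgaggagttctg
Isg15 held 3 overlapping matches, starting 78, 72 and 66 bases before the gene start. Ifit3 held 2, at 156 and 122 bases before it, and Ifit1 2, at 104 and 85 bases before it, all on the other strand. Of the 17 listed interferon genes found in the promoter table, 9 (52.9%) held a match, against 1079 of all 27025 genes (3.99%); Irf7 held none. By promoter, it was 9 of 20 (45.0%), against 1131 of 32851 (3.44%). A match is a stretch of letters and not a bound site.

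Shares of cells gave the same order for the interferon genes, with sizeable shares in other cells of the control library. Thinned to 1000 UMIs, 4.39% of UBD and 41.9% of control low class II cells held an Irf7 UMI, against 0.562% and 12.2% of the tumour gate and 2.15% and 16.4% of T or NK cells. For Isg15 the shares were 2.57% and 25.1% in the low class II cells, and 2.58% and 20.9% in the tumour gate. The UBD share of Isg15 was thus no higher than in the tumour gate of its own library. That gate held UMIs of all 21 listed interferon genes, so its share is not a measure of free RNA alone. Interferon transcripts were lower in other cells of the UBD library too, and the part of free RNA in the difference was not tested.

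The libraries also differed in how low and high class II cells stood to each other for these genes. In the UBD library 9 of 20 interferon genes were at least 1.5-fold higher in low than in high cells and 0 lower (background 12.1% and 5.31%), with a median log2 ratio of 0.34; in the control library 0 of 21 were higher and 4 lower (background 9.22% and 5.59%), with a median of -0.30. The UBD value rested on cells with a Lyve1 or Fcna UMI, described below: without them the median in the UBD library was -0.21.

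**Figure D3:**
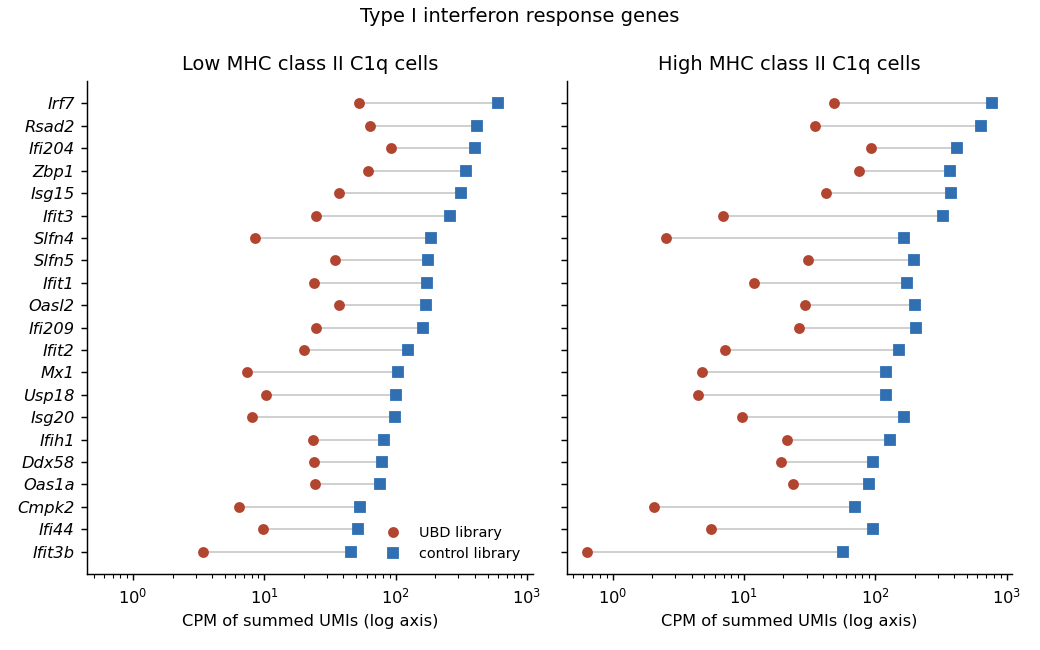
Levels of the type I interferon genes (CPM of summed UMIs, log axis) in the UBD library (circles) and the control library (squares), joined by a grey line, for low class II C1q cells on the left and high class II C1q cells on the right. All 21 genes lie lower in the UBD library in both classes, for example Irf7 at 52.8 CPM against 602 CPM in low cells.

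Genes induced by interferon gamma and the MHC class I pathway were mostly lower in the UBD cells, with Cxcl9 as an exception. Of 15 interferon gamma response genes, 10 were lower and 2 higher in the high class II cells (background 21.9% and 12.3%), with a median log2 ratio of -0.93. In the low class II cells 11 of 15 were lower and 2 higher (background 20% and 13.6%), with a median of -0.999. Cxcl10, a chemokine for CXCR3-positive T cells, had 437 CPM in the UBD cells and 1352 CPM in the control cells, 3.09-fold lower, and the transcription factor Irf1 had 65.8 CPM and 167 CPM, 2.54-fold lower. Cxcl9, which acts on the same receptor, had 340 CPM in the UBD cells and 127 CPM in the control cells, 2.67-fold higher (2.45 to 2.91), and was also higher in the high class II cells (973 against 332 CPM). Thinned, 19.7% of UBD and 43.8% of control low class II cells held a Cxcl10 UMI, against 4.30% and 17.2% of T or NK cells and 8.64% and 49.98% of the tumour gate. In the UBD low class II cells 16 of 16 class I genes were past 1.5-fold lower (background 20%), with a median log2 ratio of -0.997; in the high class II cells 0 were higher and 11 lower (background 12.3% and 21.9%). B2m, the light chain of class I, had 2249 CPM in the UBD cells and 4227 CPM in the control cells, 1.88-fold lower; the heavy chain H2-K1 had 1455 CPM and 2800 CPM, 1.92-fold lower; and the immunoproteasome subunit Psmb8 had 384 CPM and 599 CPM, 1.56-fold lower. H2-Q6 and H2-Q7 are near-identical, so their separate values are uncertain.

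The largest UBD-over-control ratios in the low class belonged to genes of a resident type of macrophage. Of the 9 marker genes listed for it, 8 were at least 1.5-fold higher in the UBD low class II cells and 0 lower (background 13.6% and 20%), with a median log2 ratio of 2.98; their summed level was 1262 CPM in the UBD cells and 435 CPM in the control cells. Lyve1, a hyaluronan receptor (chr7:110850607-110863239, minus strand, GRCm38), had 587 UMIs and 134 CPM in the UBD cells and 45 UMIs and 7.05 CPM in the control cells, 19.02-fold higher (14.0 to 26.4). Ltc4s, leukotriene C4 synthase, had 108 CPM and 8.93 CPM, 12.1-fold higher; Cd209f, a C-type lectin, 108 CPM and 9.87 CPM, 11.0-fold higher; and the ficolin gene Fcna, whose protein binds sugars and starts the lectin pathway of complement, 128 CPM and 16.3 CPM, 7.88-fold higher. Timd4, a receptor for phosphatidylserine on dying cells, rested on 36 UMIs in the UBD cells and 1 UMI in the control cells, a ratio of 52.5 (8.84 to 2130). Folr2 was the 1 marker within 1.5-fold, at 349 CPM in the UBD cells and 253 CPM in the control cells.

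In the high class II cells 0 of 8 of these markers were past 1.5-fold higher in the UBD library and 3 past 1.5-fold lower (background 12.3% and 21.9%), with a median log2 ratio of -0.09. Lyve1 had 9.76 CPM in UBD and 7.99 CPM in control high class II cells, and Ltc4s 12.8 CPM and 13.6 CPM. Whether the classes differ in this was not tested. Within the UBD library, all 9 of 9 markers were higher in low than in high cells (background 12.1%, median log2 ratio 3.78); in the control library 4 of 8 were higher and 1 lower (background 9.22% and 5.59%, median 0.27). The sign of the control median depended on the limits: it was -0.73 with class II under 15 per 10000 for the low class and -1.12 with classes set on thinned cells.

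These transcripts came from a minority of cells. After thinning, 71 of 661 UBD cells (10.7%, 8.48 to 13.4%) and 19 of 1333 control cells (1.43%, 0.860 to 2.22%) held a Lyve1 or Fcna UMI, against 0.391% and 0.230% of T or NK cells and 2.33% and 0.942% of high class II cells. Without thinning the shares were 21.8% and 3.09%, and 19 UBD and 91 control cells were too shallow to thin. In the UBD library the cells with such a UMI also stood high for genes the split did not use. They had 1138 CPM of Folr2 and the remaining cells 256 CPM, and 477 CPM of Gas6 against 59.7 CPM. Mrc1 stood at 986 CPM with and 386 CPM without, Cd163, a haemoglobin receptor, at 141 CPM and 11.3 CPM, and Ccl8 at 6319 CPM and 3390 CPM. They stood low for Fabp5, 362 CPM with and 3027 CPM without, for Arg1, 486 CPM and 1413 CPM, and for Cx3cr1, the fractalkine receptor, 43.4 CPM and 141 CPM. The 19 control cells had 1392 CPM of Folr2 against 238 CPM in the rest, 820 CPM of Gas6 against 38.4 CPM and 26220 CPM of Apoe against 8114 CPM, so both libraries held such cells. The groups being split by a UMI of the same cells, these values are descriptions.

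Ifit3 stood higher in the cells with a Lyve1 or Fcna UMI in the UBD library and lower in those of the control library. Among UBD low class II cells it had 111 CPM in cells with a Lyve1 or Fcna UMI and 14.6 CPM in those without, and Isg15 had 71.5 CPM and 32.8 CPM. Among control cells Ifit3 had 135 CPM with (69.6 to 235) and 260 CPM without (247 to 273). The control value with such a UMI rested on 12 Ifit3 UMIs in 19 cells. When all cells with a Lyve1 or Fcna UMI were left out of both libraries, 532 UBD cells and 1380 control cells remained, and the median of the interferon list over control was -3.51. Without those cells the median of the resident-type list was 0.41, and Cd209f (log2 ratio -1.60) and the endothelin receptor Ednrb (-2.57) turned to lower in the UBD cells. Lyve1 and Fcna are themselves on that list and had no UMI left, so 0.41 is over other members only. A fall of the list median from 2.98 was thus partly built into the removal.

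Other genes with the largest ratios were Fn1 and Col14a1, whose log2 ratios without those cells were 3.31 and 3.17. Fn1, fibronectin, had 940 CPM in the UBD cells and 92.6 CPM in the control cells, 10.1-fold higher (9.31 to 11.1), and 10.3-fold higher in the high class II cells. Thinned, 41.8% of UBD and 5.85% of control low class II cells held a Fn1 UMI, against 8.79% and 3.56% of T or NK cells and 45.7% and 31.0% of the tumour gate, whose cells make the gene themselves. Among the UBD cells, those with an Arg1 UMI had 1420 CPM of Fn1 and those without 553 CPM. Col14a1, a fibril-associated collagen, had 78.3 CPM and 9.56 CPM, 8.20-fold higher, and was 19.3-fold higher in the high class II cells; fibroblasts of the UBD library held 289 CPM. The secreted serine protease Htra1 was 6.39-fold higher, the myelin gene Pmp22 5.53-fold, the ion pump regulator Fxyd2 5.52-fold, and the aminopeptidase Anpep (CD13) 5.15-fold; without the Lyve1 or Fcna cells the log2 ratio of Pmp22 was 1.86, against 2.47 with them. Ednrb was 4.69-fold higher over all low cells and, as given above, lower without those cells. Retnla, a secreted protein of alternatively activated macrophages, was 6.93-fold higher, a log2 ratio of 2.79 whose size depended on the limits. It was 0.65 with class II under 15 per 10000 for the low class, 1.97 with a limit of 60, 1.22 with classes set on thinned cells, 1.99 with cells weighted equally and 4.93 without the Lyve1 or Fcna cells.

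**Figure D4:**
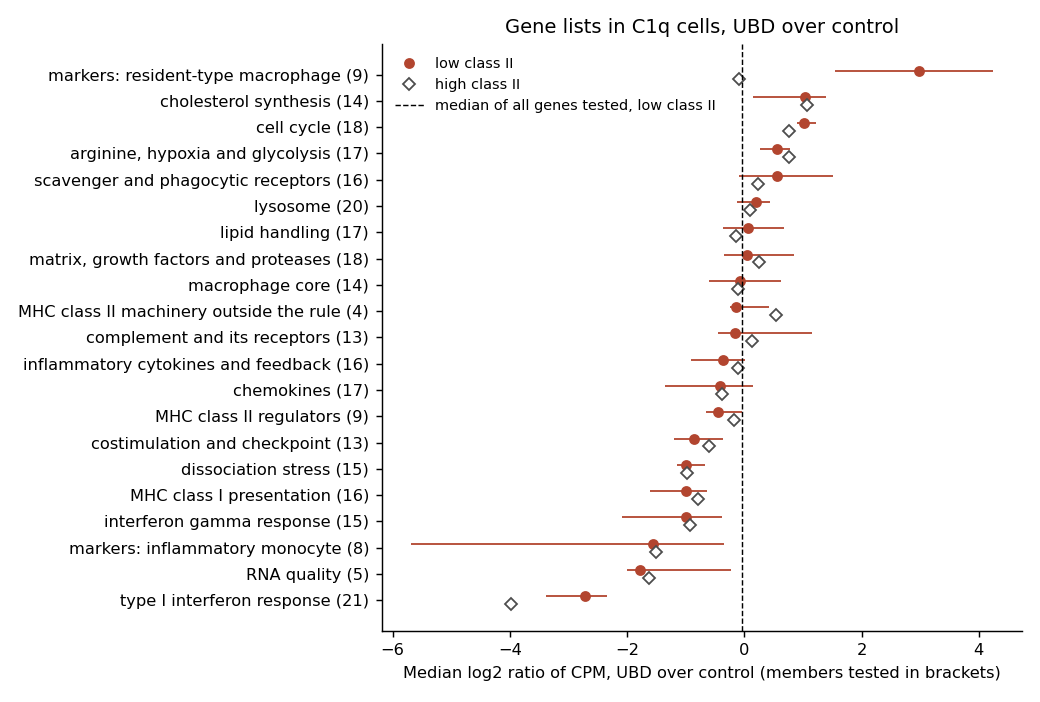
Median log2 ratio of CPM, UBD over control (x axis), of each gene list in low class II C1q cells (filled circles) and high class II C1q cells (open diamonds), with the number of members compared in brackets; bars are order-statistic intervals over the members in low cells and describe their spread, and the dashed line is the median of all genes in low cells. The resident-type macrophage list stands at 2.98 in low cells and -0.09 in high cells, and the type I interferon list at -2.72 and -3.99.

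Monocyte genes were lower in the UBD low class II cells. Of 8 inflammatory monocyte markers 7 were at least 1.5-fold lower and 0 higher (background 20% and 13.6%), with a median log2 ratio of -1.56, and their summed level was 208 CPM in the UBD cells and 1532 CPM in the control cells. Ly6c2, a surface protein of inflammatory monocytes, had 11.2 CPM and 579 CPM, 51.7-fold lower (39.0 to 70.0), with reads that its close relative Ly6c1 may share. Ly6c2 was among the genes set aside because another cell type held over 5 times as much. Plac8 had 106 CPM and 731 CPM, 6.87-fold lower, and the monocyte chemokine receptor Ccr2 47.0 CPM and 117 CPM, 2.49-fold lower. Ms4a4c, a membrane protein of the CD20 family, had 32.7 CPM in the UBD cells and 737 CPM in the control cells, 22.6-fold lower; the Ly6c2 monocytes of the control library held 1459 CPM. Ppbp, a platelet chemokine next to Pf4 on chromosome 5, had 2.74 CPM and 132 CPM, 48.2-fold lower (27.4 to 93.6). Ppbp is not on the monocyte list, and in the control library it was over 1.5-fold higher in the low class than in Ly6c2 monocytes. In the high class II cells 5 of the 8 monocyte markers were at least 1.5-fold lower and 0 higher (background 21.9% and 12.3%). Their median log2 ratio there was -1.51, and their summed level 358 CPM in the UBD library and 2139 CPM in the control library.

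The thinned shares placed the Ly6c2 signal in part of the control cells. A Ly6c2 UMI was held by 3 of 661 UBD cells (0.454%, 0.0937 to 1.32%) and by 361 of 1333 control cells (27.1%, 24.7 to 29.6%), against 0.363% and 8.53% of the tumour gate. The UBD share is near its background. The 361 control cells had more of other monocyte genes than the 972 control cells without: Plac8 stood at 1990 CPM against 374 CPM and Ccr2 at 234 CPM against 84.3 CPM. They had less of the macrophage genes, with Pf4 at 2989 CPM against 6314 CPM, Ccl8 at 1309 CPM against 3972 CPM, Mrc1 at 164 CPM against 331 CPM and C1qa at 4056 CPM against 5209 CPM. Isg15 was 549 CPM in them and 244 CPM in the rest. With all cells that held a Ly6c2 UMI left out, 668 UBD and 854 control cells remained, and the monocyte list median over control was -0.64. Ly6c2 is itself on that list and had no UMI left, so -0.64 is over other members only. Part of the change from -1.56 was thus built into the removal. Leaving cells with a Ly6c2 UMI out of all C1q cells put the low share at 40.5% in the UBD library and 69.5% in the control library.

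Set against Ly6c2 monocytes of the same library, the low class II cells carried more macrophage and cell cycle genes in both libraries. Of 14 core macrophage genes 10 were higher and 1 lower in the UBD library, where 30.4% of 9098 genes were higher and 15.7% lower, and 9 were higher and 1 lower in the control library, where 29.4% of 10491 were higher and 10.8% lower. All 8 monocyte markers were lower in both, with medians of -5.99 in the UBD library and -3.18 in the control library. All 18 cell cycle genes were higher in both, with medians of 2.02 and 1.84. The UBD library had 137 monocytes and the control library 1252, and Ly6c2 and Lyz2 were used to choose them. Lyz2 is on the core macrophage list and was its 1 lower gene in the control library. Ly6c2 is on the monocyte list. The calls of Lyz2 and Ly6c2 here thus describe the choice of monocytes.

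Part of the scavenger genes were higher in the UBD low class II cells. Of 16 scavenger and phagocytic receptor genes, 8 were at least 1.5-fold higher and 2 lower (background 13.6% and 20%), with a median log2 ratio of 0.55. Mrc1 had 449 CPM in the UBD cells and 293 CPM in the control cells, 1.53-fold higher; Gas6 104 CPM and 49.97 CPM, 2.08-fold higher; the Fc receptor-like scavenger Fcrls 151 CPM and 49.97 CPM, 3.02-fold higher; and the fungal receptor Clec4n (dectin-2) 375 CPM and 131 CPM, 2.85-fold higher. The 2 lower genes, a share below the background, were the activating IgG receptors Fcgr1, at 235 CPM and 619 CPM, 2.63-fold lower, and Fcgr4, at 250 CPM and 551 CPM, 2.21-fold lower. Fcgr2b, the inhibitory one, had 563 CPM and 459 CPM, and Fcgr3 422 CPM and 380 CPM, both within 1.5-fold. Of the 8 higher genes, Mrc1, Gas6 and Cd163 stood higher in the UBD cells with a Lyve1 or Fcna UMI, as given above. Cd163 and Timd4 are also on the resident-type list. In the high class II cells 5 of 16 scavenger genes were higher and 3 lower (background 12.3% and 21.9%), with a median of 0.23.

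Lysosomal genes were nearly level between the libraries: 3 of 20 were at least 1.5-fold higher, near the background of 13.6%, and 0 lower (background 20%), with a median log2 ratio of 0.20. The tetraspanin Cd63 of late endosomes had 1223 CPM in the UBD cells and 513 CPM in the control cells, 2.38-fold higher, while the protease Ctsb had 2563 CPM and 3069 CPM, within 1.5-fold. Of 17 lipid genes, 5 were higher and 3 lower, the second near the background, with a median of 0.07. Plin2, which coats lipid droplets, had 298 CPM and 675 CPM and was 2.27-fold lower; the scavenger receptor Cd36 had 29.7 CPM and 13.3 CPM and was 2.23-fold higher. Spp1, osteopontin, had 4073 CPM in the UBD cells and 999 CPM in the control cells, 4.08-fold higher, but 53.5% of UBD and 44.7% of control T or NK cells held a Spp1 UMI after thinning, against 65.4% and 49.3% of the low class II cells. Its share thus stood only a little above that of other cells in both libraries.

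Arg1 and part of the glycolytic genes were higher in the UBD cells. Of 17 genes of arginine use, hypoxia and glycolysis, 8 (Arg1, Nos2, Bnip3, Ldha, Pgk1, Egln3, Adm and Eno1) were at least 1.5-fold higher and 0 lower (background 13.6% and 20%), with a median log2 ratio of 0.56; in the high class II cells 13 were higher and 0 lower (background 12.3% and 21.9%), with a median of 0.76. The glycolytic genes Pkm and Tpi1 and the glucose transporter Slc2a1 were among the 13 and did not pass in the low cells. Arg1 had 1312 CPM in the UBD cells and 379 CPM in the control cells, 3.46-fold higher (3.30 to 3.63). Lactate dehydrogenase Ldha had 1024 CPM and 596 CPM, and the glycolytic kinase Pgk1 825 CPM and 481 CPM, both 1.72-fold higher. Thinned, 44.6% of UBD and 18.9% of control cells held an Arg1 UMI, against 2.93% and 1.38% of T or NK cells. Cells with an Arg1 UMI stood apart within each library: Pf4 had 2871 CPM with and 1608 CPM without in the UBD library, and 12393 CPM with and 4033 CPM without in the control library. Fabp5 had 4077 CPM with and 1673 CPM without in the UBD library, and 4630 CPM and 1924 CPM in the control library. Cxcl9 was the reverse, at 201 CPM with and 451 CPM without in the UBD library and 30.9 CPM and 148 CPM in the control library.

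Proliferation genes were higher in the UBD cells. Of 18 cell cycle genes 16 were at least 1.5-fold higher and 0 lower (background 13.6% and 20%), with a median log2 ratio of 1.02 (12 of 18 in the high class II cells, background 12.3%, median 0.76). Without cells that held a Ly6c2 UMI the median was 0.67. The proliferation antigen Mki67 had 87.7 CPM in the UBD cells and 30.4 CPM in the control cells, 2.89-fold higher; topoisomerase Top2a 165 CPM and 56.9 CPM, 2.90-fold higher; and the microtubule regulator Stmn1 325 CPM and 140 CPM, 2.33-fold higher. The replication clamp Pcna had 98.4 CPM and 99.0 CPM. Thinned, 24.96% of UBD cells and 12.2% of control cells held at least 2 UMIs of the cell cycle list, against 36.5% and 39.8% of the tumour gate, which cycles. Those cells were deeper than the rest, with median totals of 8271 against 5682 UMIs in the UBD library and 5708 against 3926 UMIs in the control library, and they had less Pf4, 1113 against 2657 CPM and 2164 against 6294 CPM, and more Cx3cr1, 184 against 106 CPM and 119 against 28.4 CPM. Cx3cr1 over all low class II cells was 130 CPM in the UBD library and 43.9 CPM in the control library, 2.97-fold higher. Cholesterol synthesis genes followed the same order: 8 of 14 were higher and 0 lower, against the same background, with a median of 1.04. The farnesyl diphosphate synthase Fdps had 35.2 CPM and 10.5 CPM, 3.35-fold higher. In the high class II cells 9 of 14 cholesterol genes were higher and 0 lower (background 12.3% and 21.9%), with a median of 1.06.

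**Figure D5:**
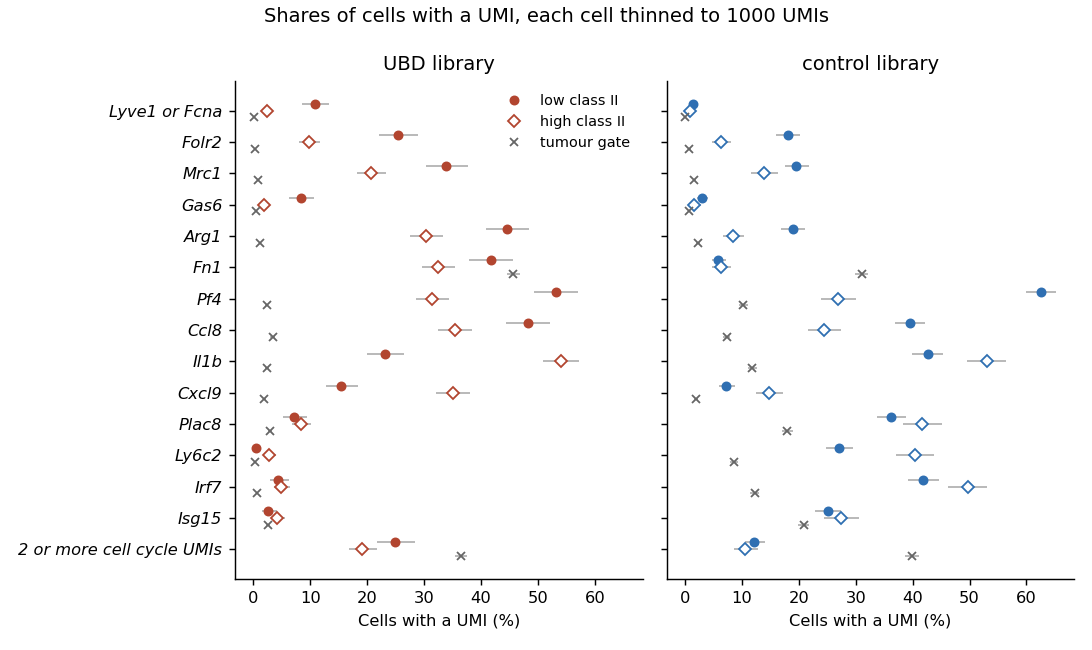
Shares of cells with at least 1 UMI of each gene, or at least 2 of the cell cycle list (x axes, percent), after thinning every cell to 1000 UMIs, in the UBD library on the left and the control library on the right; filled circles are low and open diamonds high class II C1q cells, crosses are the tumour gate, and bars are exact binomial 95% intervals. Arg1 stands at 44.6% in UBD and 18.9% in control low class II cells, and Ly6c2 at 0.454% and 27.1%.

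Chemokine and inflammatory genes were lower in the UBD cells at a part of each list. Of 17 chemokine genes, 8 were at least 1.5-fold lower and 2 higher (background 20% and 13.6%), with a median log2 ratio of -0.42. Ccl4, a CC chemokine, had 569 CPM in the UBD cells and 2341 CPM in the control cells, 4.11-fold lower; Ccl7, a monocyte attractant, 1190 CPM and 2886 CPM, 2.43-fold lower; and Ccl2, which draws monocytes through CCR2, 1282 CPM and 1973 CPM, 1.54-fold lower. Ccl8 had 3712 CPM and 3367 CPM, within 1.5-fold, and the chemokine Cxcl14 had 86.6 CPM and 9.24 CPM, 9.37-fold higher (7.10 to 12.5). Cxcl14 was among the genes set aside because their level was under 20% of that in another cell type. The part of free RNA in its ratio was not tested. Cxcl2, a neutrophil attractant, had 2961 CPM and 3970 CPM, with 43925 CPM in control neutrophils. Of 16 inflammatory genes 6 were lower and 1 higher, against the same background, with a median of -0.37. The cytokine Il1b had 539 CPM and 1183 CPM, 2.19-fold lower, and Tnf 45.9 CPM and 158 CPM, 3.44-fold lower, while the feedback inhibitor Nfkbia had 1042 CPM and 1037 CPM. Within the UBD library Il1b was 3.63-fold lower in low than in high class II cells, and within the control library 1.42-fold lower. UBD over control, the high class II cells had 8 of 17 chemokine genes lower and 2 higher (background 21.9% and 12.3%), with a median of -0.38. Of the 16 inflammatory genes 4 were lower and 2 higher there, with a median of -0.11.

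Costimulation and checkpoint genes were lower in both classes of C1q cells. In the high class II cells 7 of 13 were lower and 1 higher (background 21.9% and 12.3%), with a median log2 ratio of -0.60. In the low class II cells 10 of 13 were lower and 0 higher (background 20% and 13.6%), with a median of -0.85. Cd274 (PD-L1), the ligand of PD-1 on T cells, had 45.5 CPM in the UBD cells and 136 CPM in the control cells, 2.98-fold lower (2.56 to 3.50). The costimulatory ligand Cd86 had 65.8 CPM and 119 CPM, 1.81-fold lower; Sirpa, the receptor of the CD47 signal, 204 CPM and 372 CPM, 1.82-fold lower; and the galectin Lgals9 85.9 CPM and 198 CPM, 2.30-fold lower.

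Complement and core macrophage genes had shares of calls near the background, with named members on both sides. Of 13 complement genes outside the rule, 3 were at least 1.5-fold higher and 2 lower (background 13.6% and 20%), with a median log2 ratio of -0.16. Cfb, which drives the alternative pathway, had 10.3 CPM in the UBD cells and 52.2 CPM in the control cells, 5.08-fold lower (3.71 to 7.09). The properdin gene Cfp had 489 CPM and 545 CPM, within 1.5-fold. Of 18 matrix and growth factor genes 7 were higher and 3 lower, against the same background, with a median of 0.05: the protease inhibitor Timp2 had 864 CPM and 422 CPM, 2.05-fold higher, the growth factor Pdgfa 139 CPM and 45.1 CPM, 3.09-fold higher, and thrombospondin Thbs1 299 CPM and 849 CPM, 2.84-fold lower. Of 14 core macrophage genes 3 were higher and 3 lower, near the background both ways, with a median of -0.08. Lysozyme Lyz2 had 7387 CPM in the UBD cells and 2932 CPM in the control cells, 2.52-fold higher, and Csf1r, the receptor of the macrophage growth factor, 253 CPM and 194 CPM, within 1.5-fold. Class II genes outside the rule showed no call between the libraries, 0 of 4 higher and 0 lower, and of 9 regulators 0 were higher and 2 (Nfya and Nfyc) lower.

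Members varied widely within each library. By cell, Pf4 had a 10th percentile of 0, a median of 10.2 and a 90th percentile of 59.8 per 10000 in the UBD cells, against 0, 15.6 and 166 per 10000 in the control cells. Arg1 had a median of 5.60 and a 90th percentile of 37.0 per 10000 in the UBD cells, and a median of 0 and a 90th percentile of 11.9 in the control cells. The top 10% of cells by level held 49.0% of Pf4 and 49.0% of Arg1 UMIs in the UBD library, and 53.4% and 72.1% in the control library. Apoe spread from 2.10 to 245 per 10000 between those percentiles in the UBD cells and from 4.58 to 197 in the control cells. C1qa, on which the cells were chosen, spread from 22.6 to 97.3 per 10000 in the UBD cells and from 11.4 to 88.7 in the control cells.

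Markers of other cells were low but present in the class. Summed levels were 75.4 CPM in the UBD and 50.8 CPM in the control cells for 8 T cell markers, 11.4 CPM and 89.4 CPM for 8 NK markers (Ncr1 and Klra7 at 0 UMIs in the UBD cells), 46.8 CPM and 49.7 CPM for 6 B cell markers, and 19.4 CPM and 68.8 CPM for 7 neutrophil markers (Cxcr2 and Stfa2l1 at 0 in the UBD cells). They were 268 CPM and 287 CPM for 7 fibroblast markers, 96.6 CPM and 86.0 CPM for 7 MC38 markers (Epcam at 0 in both), 224 CPM and 102 CPM for 7 osteoclast markers (Oscar at 0 in the control cells), and 146 CPM and 125 CPM for 8 conventional dendritic markers (Xcr1, Clec9a and Itgae at 0 in the UBD cells). They were 14.8 CPM and 22.2 CPM for mature dendritic cells, 126 CPM and 106 CPM for plasmacytoid dendritic cells (Siglech, Klk1 and Cd300c at 0 in the UBD cells), 5.94 CPM and 24.4 CPM for endothelium (Cldn5, Esam and Emcn at 0 in the UBD cells), 11.6 CPM and 3.29 CPM for red cells (Alas2 at 0 in both), and 0 CPM and 0.157 CPM for mast cells and basophils. The MC38 list includes Cdkn2a, and the osteoclast list includes Acp5 and Ctsk, all limited by the rule. Cdkn2a stood at 73.1 CPM in the UBD and 68.9 CPM in the control cells. Acp5 stood at 135 CPM and 50.1 CPM, and Ctsk at 28.3 CPM and 14.3 CPM. The MC38 and osteoclast sums are thus mostly levels of rule genes. The T cell gene Cd3e was held by 0.303% of UBD and 0.375% of control cells after thinning, against 0.410% and 0.401% of the tumour gate, so its level was that of the background.

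Signs of handling and RNA quality also moved with the library. Of 15 dissociation stress genes 13 were past 1.5-fold lower and 0 past 1.5-fold higher in UBD low class II cells (background 20% and 13.6%), with a median log2 ratio of -0.99, and the high class II cells had a median of -0.98. Atf3, an early stress gene, had 343 CPM in the UBD cells and 1083 CPM in the control cells, 3.15-fold lower. Gm42418, which overlaps ribosomal RNA sequence, had 2888 CPM and 11578 CPM, 4.01-fold lower, and the median mitochondrial share of UMIs was 2.85% and 1.91%. Depth, these signs and free RNA all moved with the library, and their part in the differences between the libraries was not tested.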

How the data were processed

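Cells of 1 UBD-overexpressing and 1 control MC38 tumour library were profiled with the 10x Chromium 3′ v3 kit, per the labels' protocols. The deposited values are counts, UMIs per gene and barcode, for 31053 genes; the matrix header names software version 3.1.0, and the submitters' processing notes name Cell Ranger, STAR and mm10, with no role given. How barcodes were called is not stated.

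Members, lists and rules were chosen with earlier results of these data known. Members were found by the rule, and UMIs were summed per library and class and divided by the class total (CPM). No count model was fitted, since each group is 1 library. Levels carry exact Poisson, ratios conditional binomial, shares Clopper-Pearson and share differences Newcombe intervals, at 95%, for counting error only. The floor was 3 counts. A gene was compared when its UMIs over both sides summed to at least 20, and counted when past 1.5-fold; the routines were tested on simulated data. For shares, cells were thinned to 1000 UMIs. Scrublet (expected rate 0.1, scanpy 1.11.5) marked doublets, which were kept in the values reported. Other cells were gated by marker counts.

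Genes were named when they had at least 50 CPM in 1 library, at least 50 summed UMIs, an interval without 1 and at least 20% of their highest level in another gate: the 12 largest ratios each way between libraries, and the 10 each way between classes by the smaller of the 2 libraries' ratios. Rule genes, sex-linked, mitochondrially encoded, ribosomal protein and provisional genes were left out. From each list the 4 members with the most UMIs could be named; further list members were picked after their values were seen. Coordinates are from GENCODE vM21, which held 30934 of the gene IDs. Of 35 lists, 19 were functional and 16 were cell markers. Alternatives were other limits on C1q, class II, UMIs and mitochondrial share, classes set after thinning, doublets removed, cells weighted equally, other totals, centring, a higher minimum, and the removal of cells with Ly6c2 or with Lyve1 or Fcna UMIs, the last 2 chosen after seeing the data. Python 3.11.15, numpy 2.4.6, scipy 1.17.1, pandas 2.3.3 and matplotlib 3.10.9 were used. A few genes are not reported here.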

Additional observations from a re-analysis of the deposited data

Results flagged for a closer look

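For 6 of 316 genes looked at, the UBD library over the control library went opposite ways in low and high class II C1q cells, each past 1.5-fold. The genes looked at were named or listed ones, in part named for their large ratios. The same count was not made over all genes, so the 6 have no background to be read against. The difference between the classes was not tested, and each value compares 1 library with 1 library.

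Cd209f had 108 CPM in UBD and 9.87 CPM in control low class II cells, a log2 ratio of 3.46, and 3.20 CPM and 12.3 CPM in high class II cells, a log2 ratio of -1.95. The related lectin Cd209g had 40.7 CPM and 8.46 CPM in low cells (2.26), and 2.24 CPM and 5.57 CPM in high cells (-1.31), where it rested on 14 UBD and 23 control UMIs. The haemoglobin receptor Cd163 had 25.1 CPM and 7.99 CPM in low cells (1.65), and 1.76 CPM and 3.15 CPM in high cells (-0.84), on 11 UBD and 13 control UMIs. All 3 are on the resident-type macrophage list.

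Complement C4b had 63.5 CPM in UBD and 28.4 CPM in control low class II cells, a log2 ratio of 1.16, and 25.9 CPM and 62.0 CPM in high class II cells, a log2 ratio of -1.26. The chemokine Ccl24 had 16.4 CPM and 9.56 CPM in low cells (0.78), and 8.32 CPM and 16.0 CPM in high cells (-0.94). The growth factor Igf1 had 25.8 CPM and 16.3 CPM in low cells (0.66), and 5.28 CPM and 10.2 CPM in high cells (-0.95).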

How the results depend on the processing

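No paired analysis was possible because each group is 1 library. The low share of C1q cells was lower in the UBD library under every alternative run, at 35.3 to 47.9% in the UBD library and 58.5 to 69.5% in the control library. It was 36.1% and 58.5% with class II under 15 per 10000, 47.9% and 68.9% with a limit of 60, 69.5% in the control library without cells with a Ly6c2 UMI, and 35.3% in the UBD library without cells with a Lyve1 or Fcna UMI. With at least 100 summed UMIs, 736 genes were higher and 1329 lower in the UBD cells, and 104 higher and 76 lower in low than in high cells of both libraries, since fewer genes are tested. The type I interferon median lay between -3.51, without Lyve1 or Fcna cells, and -2.53. Without those cells Cd209f (-1.60) and Ednrb (-2.57) reversed; the cause was not tested. Of 882 list medians recomputed under the alternatives 15 moved beyond their spread. Of 310 values of genes named between libraries 46 left their counting interval and 2 reversed, while 308 stayed past 1.5-fold the same way. Of 520 values of genes named between classes 54 left their interval, while 519 stayed past 1.5-fold. These genes were named for large ratios in largely the same cells, so few could fall below 1.5-fold. Depth limits genes under 20 summed UMIs, the 137 UBD monocytes and the 19 control cells with Lyve1 or Fcna UMIs. With 1 library per group, variation between animals cannot be told apart from the condition.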
